A study of Mus musculus with 4 samples.

Results

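Protein tyrosine phosphatases remove phosphate groups from tyrosines, and in T cells they set the level of the phosphorylation that kinases build up below the T cell receptor (TCR) and the cytokine receptors. The genes described here are 10 members of this family with known roles in T cells. They were chosen by name, with earlier results of these data known: *Ptprc*, *Ptprj*, *Ptpn6*, *Ptpn11*, *Ptpn22*, *Ptpn12*, *Ptpn18*, *Ptpn2*, *Ptpn1* and *Ptpn7*. All 10 were found among the 24369 genes of the data set, and all 10 had enough counts to be tested. No difference in these genes between Tox-transduced and control cells passed the main test across all genes, in which not even *Tox* passed. The largest difference on the log2 scale was that of *Ptpn6*, which encodes SHP-1. This gene was at 218 and 182 counts per 1000000 (CPM) in the control libraries and 335 and 274 CPM with Tox.

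The RNA-seq data held 4 libraries of CD4 T cells from the spleens of wild-type C57BL/6 mice, 2 transduced with an empty retrovirus (EV RV) and 2 with a retrovirus encoding Tox (Tox RV), a transcription factor of the HMG box family. All 4 cultures started from naïve CD4 T cells, were activated without polarizing cytokines on plate-bound anti-CD3 with soluble anti-CD28, were transduced on day 2, and were restimulated on day 5 of culture with anti-CD3 (the series' design text adds anti-CD28) before CD4+ GFP+ cells were sorted. The methods add recombinant human IL-2 to these cultures, while the sample labels name a recombinant human anti-CD28 in that place. Both vectors carry GFP, and expression of Tox is driven by the retrovirus rather than by its own locus. There were 2 biological replicates per condition, described as 2 individual mice per group, and the ages of these mice are not given in the sources used here.

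Pairs of values are given in the order replicate 1, replicate 2. Summed over genes, the expected counts came to 46989997 and 74548723 for EV RV and to 61442264 and 49012254 for Tox RV. *Tox* itself, the gene on the retrovirus, was at 11.7 and 5.73 CPM in the EV RV libraries and at 121 and 99.9 CPM with the Tox RV, so each library lay on the side of its label (log2 fold change 3.68, standard error 0.38, edgeR adjusted p = 0.490, DESeq2 adjusted p = 3.79e-24). Of the CD4 T cell markers, *Cd3d*, *Cd3g*, *Cd4*, *Cd28* and *Lat* were at 248 CPM or more in every library and *Cd3e* was at 71.6 to 219 CPM, highest in EV RV replicate 1. The 2 CD8 T cell markers summed to 3.88 to 4.77 CPM, the 5 B cell markers to 1.16 to 1.62 CPM with *Ms4a1* and *Pax5* at 0 counts throughout, and the 7 myeloid markers to at most 2.21 CPM. EV RV replicate 1 stood apart from the other libraries: it lay at -53.8 on a first principal component that held 58.0% of the variance, where the others lay between 5.70 and 25.8, and 24.7% of its counts came from the 45S pre-rRNA against 7.14% to 11.97% elsewhere.

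The family is defined by a short catalytic signature in which a histidine and the cysteine that attacks the phosphotyrosine are followed by any 5 residues and an arginine, here with a serine or threonine after it. Read in frame from the coding sequences of the GENCODE M21 annotation (GRCm38, the build called mm10), this signature occurred exactly 1 time in each of the 10 genes, *Ptprc* included although its product has a pair of phosphatase domains. It occurred in 0.663% of 21556 protein-coding genes. The bases that encode it are shown because they are what the 10 genes have in common. Each line gives 30 bases, 5′ to 3′ on the coding strand, with the codons of the catalytic cysteine and of the arginine in capitals, and the sequence of *Ptpn2* is not shown. The span in mm10 follows the name, and it includes the intron where one divides the bases.
Ptprc (chr1:138080252-138080847, minus strand): gtgcacTGCagtgctggtgttgggCGTaca
Ptprj (chr2:90439974-90440635, minus strand): gtgcatTGCagtgctggggttggaAGGacg
Ptpn6 (chr6:124722060-124724967, minus strand): gtgcatTGCagcgctggcatcggcCGCacg
Ptpn11 (chr5:121143611-121144540, minus strand): gttcacTGCagcgctgggattggcCGGaca
Ptpn22 (chr3:103876727-103877323, plus strand): attcacTGCagtgccggctgcggaAGGaca
Ptpn12 (chr5:21005397-21009452, minus strand): attcatTGCagtgcaggctgtggaCGAaca
Ptpn18 (chr1:34470332-34471511, plus strand): gtccacTGCagtgctggctgcggaCGAaca
Ptpn1 (chr2:167974204-167974233, plus strand): gtccacTGCagcgccggcatcgggAGGtca
Ptpn7 (chr1:135139268-135141961, plus strand): gttcacTGCagtgcagggatcggcCGGacc
All 9 shown used the same cysteine codon, whereas the arginine was encoded by 5 different codons. The 30 bases lie within 1 exon in *Ptpn1*, and an intron divides them in the other 8. *Ptpn6* and *Ptpn11*, which encode the closely related SHP-1 and SHP-2, shared 24 of the 30 bases and all 10 translated codons, as did *Ptprc* and *Ptprj*. *Ptpn7* is of another subfamily, yet it shared 26 bases with *Ptpn11* and 23 with *Ptpn6*, and all 10 codons with each. *Ptpn22* and *Ptpn12* of the PEST subfamily shared 25 bases and all 10 codons. Each of them shared 25 bases and 9 of the 10 codons with *Ptpn18*, the further member of that subfamily.

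Tox RV and EV RV cells were compared gene by gene to ask which transcripts ectopic Tox expression changes. Counts were scaled with edgeR's TMM method, which gives the CPM values here, and the groups were tested by quasi-likelihood in edgeR over 14143 genes with Benjamini-Hochberg adjustment. None of the 10 phosphatase genes had an adjusted p-value below 0.05 (0 of 10, against 0% of all genes tested), and their adjusted p-values ran from 0.897 to 0.995. The smallest edgeR adjusted p-value of any gene was 0.490, that of *Tox* among them. A test that did not call even the transduced gene says little about the members. At an unadjusted p-value below 0.05 there was 1 of 10 in either direction, against 3.62% of all genes tested. This was *Ptpn6*, higher in Tox RV cells (1 of 10, against 1.07% of all genes), and 0 of 10 were lower, against 2.55%. DESeq2, the tool the methods name, also called 0 of 10 at an adjusted p-value below 0.05, where it called 0.121% of all genes. The log2 fold changes, Tox RV over EV RV, ran from -0.20 to 0.60 with a median of 0.015, and the median over all genes tested was 0.004. The members' median was 0.125 without EV RV replicate 1, 0.091 without EV RV replicate 2 and 0.134 with scaling by library totals, which moved the median of all genes to 0.124.

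**Figure D1:**
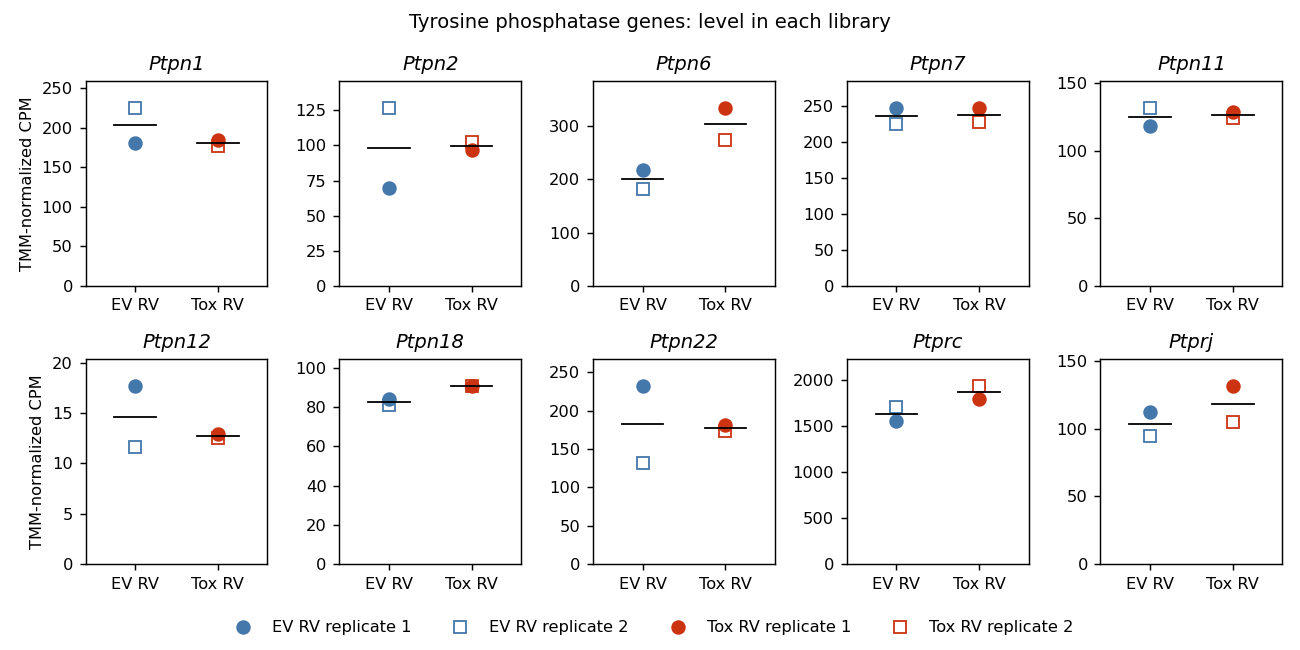
TMM-normalized CPM of each of the 10 phosphatase genes (y axes start at 0) in the EV RV and Tox RV libraries, with 1 point per library and a bar at the mean of each group. The Tox RV pair lies wholly above the EV RV pair in *Ptpn6*, *Ptpn18* and *Ptprc*, while in *Ptpn2*, *Ptpn22* and *Ptpn12* the EV RV libraries lie on either side of the Tox RV pair.

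In CPM the Tox RV pair lay wholly above the EV RV pair in 3 of the 10 genes (*Ptpn6*, *Ptprc* and *Ptpn18*). That arrangement was found in 18.6% of all genes tested. The Tox RV pair lay below both EV RV libraries in 0 of 10, against 17.4%. In the other 7 the groups overlapped, and in TPM those of *Ptpn18* did too. The EV RV libraries differed from each other by more than the Tox RV libraries did in 8 of the 10 genes, against 72.4% of all genes. In 7 of the 10 the difference between the EV RV libraries was larger than the log2 fold change, against 71.5% of all genes. Both shares were close to those of all genes. The 95% interval of the log2 fold change, not adjusted for the number of genes, included no change for 9 of the 10 genes and lay within a 2-fold change in either direction for 9 of the 10.

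**Figure D2:**
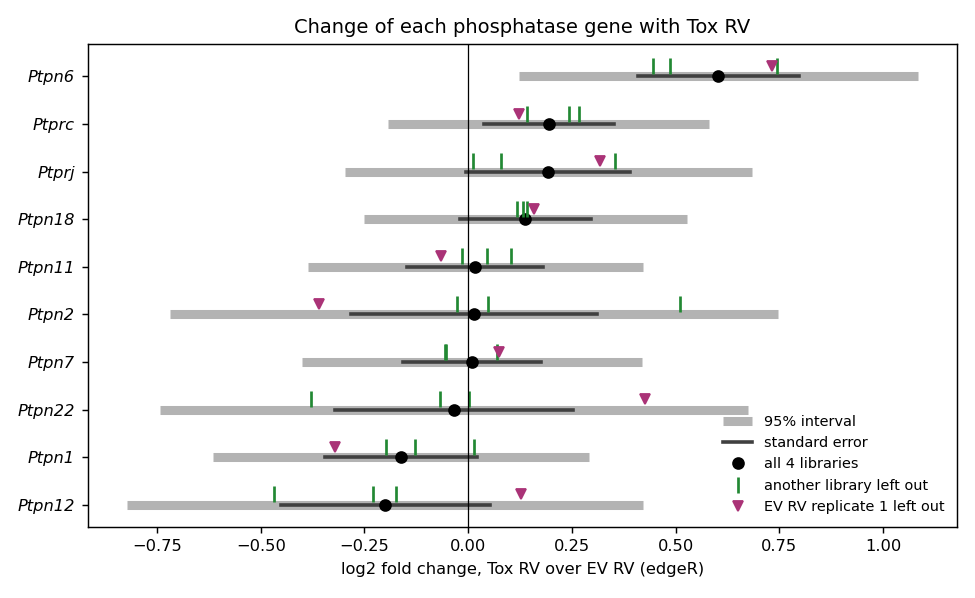
Log2 fold change of each gene, Tox RV over EV RV, from edgeR with all 4 libraries (points), its standard error (dark bars) and 95% interval (grey bars), with the values after leaving out 1 library as ticks and triangles. The interval of *Ptpn6* lies above 0, those of the other 9 genes include 0, and leaving out EV RV replicate 1 moves *Ptpn2* to -0.36 and *Ptpn22* to 0.43.

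The receptor-type phosphatases span the membrane. *Ptprc* encodes CD45, the most abundant phosphatase of the lymphocyte surface, which removes the inhibitory phosphate from the kinases Lck and Fyn and so permits TCR signaling. The gene lies on chromosome 1 of mm10 from 138062861 to 138175708 on the minus strand. It was at 1552 and 1699 CPM in the EV RV pair and at 1789 and 1931 CPM in the Tox RV pair, with 65485 to 129322 counts behind each value. The Tox RV libraries were the higher pair and the groups did not overlap, although the gap between them was a small step. On the log2 scale the difference was 0.19 (standard error 0.16, 95% interval -0.19 to 0.58, edgeR adjusted p = 0.897). It lay at 0.12 to 0.27 whichever library was omitted. *Ptprcap*, which encodes a small protein bound to CD45, was at 253 and 227 CPM in EV RV and 298 and 285 CPM in Tox RV libraries, again with both Tox RV libraries higher (log2 fold change 0.28, standard error 0.16, edgeR adjusted p = 0.897). The ratio of *Ptprcap* to *Ptprc* in transcripts per 1000000 (TPM) was 1.20 and 0.973 in the EV RV pair and 1.21 and 1.07 in the Tox RV pair, which overlap.

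CD45 is made in several sizes, because exons near the 5′ end of *Ptprc* that encode part of the outer domain can be left out of the transcript, and activated T cells are known to shift from longer to shorter forms. The authors' reference listed 3 *Ptprc* transcripts. In GENCODE M21 their counterparts have 33 exons (*Ptprc-207*), 30 exons (*Ptprc-203*) and 29 exons (*Ptprc-204*), with 3879, 3462 and 3390 coding bases. *Ptprc-207* alone holds exons 4, 5 and 6, long known as A, B and C, and *Ptprc-204* also lacks exon 7. The sequences of these exons are shown since their inclusion is what the mean transcript length of *Ptprc* bears on. They lie on the minus strand of mm10, and are given 5′ to 3′ in the direction of transcription.
Exon 4 (chr1:138122456-138122584): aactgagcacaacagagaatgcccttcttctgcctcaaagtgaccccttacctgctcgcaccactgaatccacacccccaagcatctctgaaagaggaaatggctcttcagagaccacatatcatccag
Exon 5 (chr1:138120020-138120166): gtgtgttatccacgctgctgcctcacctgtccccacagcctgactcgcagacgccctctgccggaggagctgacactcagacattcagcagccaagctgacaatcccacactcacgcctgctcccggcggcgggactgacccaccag
Exon 6 (chr1:138117754-138117894): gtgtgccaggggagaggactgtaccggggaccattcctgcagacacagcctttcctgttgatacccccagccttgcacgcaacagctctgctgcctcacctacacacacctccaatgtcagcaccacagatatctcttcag
Exon 7 (chr1:138116954-138117025): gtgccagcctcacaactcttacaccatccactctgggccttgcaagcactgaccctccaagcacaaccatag
They are 129, 147, 141 and 72 bases long, each a multiple of 3, so that leaving any of them out keeps the reading frame.

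**Figure D3:**
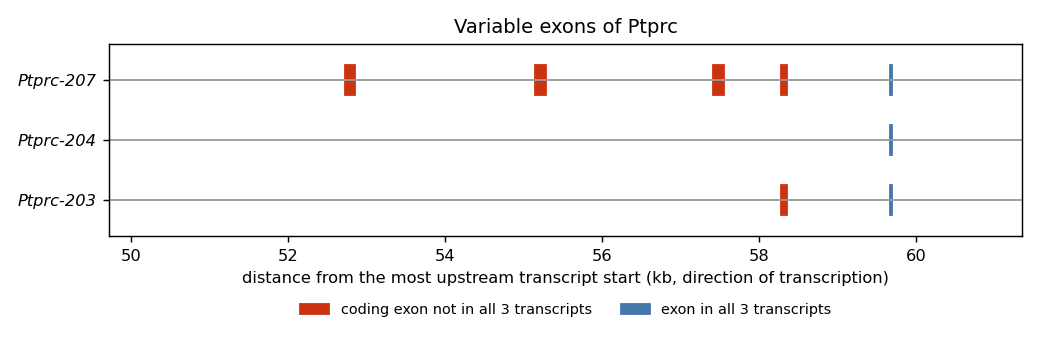
Exons of the 3 *Ptprc* transcripts around the variable region, drawn to scale against the distance in kb from the most upstream transcript start, in the direction of transcription. *Ptprc-207* holds 4 coding exons that are not in all 3 transcripts (red), *Ptprc-203* holds 1 of them and *Ptprc-204* holds none.

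For each gene and library, RSEM reports the mean length of the gene's transcripts weighted by their estimated abundance, a value that moves only when the mix of transcripts moves. For *Ptprc* it was 5305 and 5272 bases in the EV RV pair and 5272 and 5271 bases in the Tox RV pair. EV RV replicate 1 was thus about 33.5 bases above the mean of the other libraries, which lay within a few bases of one another, and the groups overlapped (exact two-sided permutation test, p = 0.667). With 2 libraries against 2 the smallest p-value this test can give is 0.333. The lengths of the 3 transcripts in the authors' reference are not listed with the values, so the mean was not converted to a share of each form. *Hnrnpll*, whose product is known to promote skipping of the variable exons, was at 57.9 and 81.2 CPM in EV RV and at 107.4 and 107.1 CPM in Tox RV libraries. Both Tox RV libraries were higher than both EV RV libraries. Its log2 fold change was 0.62 (standard error 0.21, unadjusted p = 0.0276, edgeR adjusted p = 0.897). It was 0.39 without EV RV replicate 1, the lowest library, and 0.39 to 0.90 over the omissions of each library. Of the 4 splicing regulators of *Ptprc* examined, it was the 1 with an unadjusted p-value below 0.05. That is 1 of 4 higher, against 1.07% of all genes tested, and 0 of 4 lower, against 2.55%. *Hnrnpl*, at 252 and 225 CPM against 214 and 212 CPM, and *Ptbp1*, at 403 and 352 CPM against 287 and 334 CPM, had the Tox RV pair wholly below the EV RV pair, with log2 fold changes of -0.16 and -0.28 and unadjusted p-values above 0.05. Of the 4, the Tox RV pair was wholly above in 1 and wholly below in 2, against 18.6% and 17.4% of all genes tested. *Sfpq* had a log2 fold change of -0.01, and the median of the 4 was -0.08.

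*Ptprj* encodes CD148, a receptor-type phosphatase that acts on signaling proteins below the TCR and whose gene lies on chromosome 2 from 90429754 to 90580647 on the minus strand. It was at 112.4 and 94.5 CPM in the EV RV pair and at 132 and 104.7 CPM in the Tox RV pair. EV RV replicate 1 lay above Tox RV replicate 2, so the groups overlapped. This gave a log2 fold change of 0.19 (standard error 0.20, edgeR adjusted p = 0.897), and it ranged from 0.01 to 0.35 with each library left out, the lowest value being that without Tox RV replicate 1. The mean transcript length of *Ptprj* was 6699 and 6867 bases in the EV RV pair and 6657 and 6899 bases in the Tox RV pair. It therefore differed more within each group than between the groups (exact permutation p = 1.00). Both libraries numbered 1 were the shorter, but the sources used here do not say that a replicate number marks a shared mouse.

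*Ptpn6* and *Ptpn11* encode the phosphatases with SH2 domains, modules that dock on phosphorylated tyrosines and bring the enzyme to inhibitory receptors such as PD-1. SHP-1, the product of *Ptpn6*, is known mainly as a brake on TCR and cytokine signals, and SHP-2, the product of *Ptpn11*, also carries signals from growth factor and cytokine receptors to the Ras pathway. *Ptpn6* lies on chromosome 6 from 124720707 to 124738714 on the minus strand. Its level was 218 and 182 CPM in the EV RV pair and 335 and 274 CPM in the Tox RV pair, or 200.4 ± 25.3 against 304 ± 43.2 CPM (SD, n = 2 each). Both Tox RV libraries were higher than both EV RV libraries, and the group means differed by more than either SD. The gap between the pairs in CPM was smaller than the difference between the Tox RV libraries. edgeR estimated a log2 fold change of 0.60, a 1.52-fold difference (standard error 0.19, 95% interval 0.12 to 1.08, unadjusted p = 0.0222, edgeR adjusted p = 0.897). By unadjusted p-value it ranked 200 among the 14143 genes tested. DESeq2 gave a log2 fold change of 0.61 with an unadjusted p-value of 0.0160 (1.00 after adjustment). The estimated difference on the log2 scale was 0.73 without EV RV replicate 1 and between 0.45 and 0.75 over the omissions of single libraries. The lowest value was that without Tox RV replicate 1. *Ptpn6* is expressed by most blood cells. The myeloid and B cell markers given above stayed at or below 2.21 CPM in sum, whereas the 4 NK cell markers summed to 52.0 and 12.6 CPM in EV RV and to 28.1 and 7.04 CPM in Tox RV, and their part in the values of *Ptpn6* was not tested. An antisense gene annotated over part of *Ptpn6* (*Gm20531*) is not among the genes of the data set. Reads from it could be counted to *Ptpn6* where exons overlap, unless strand was used. Other absent genes lie on the opposite strand within *Ptprj* (*4933423P22Rik*), *Ptpn22* (*Gm15602*), *Ptpn12* (*Gm43216*) and *Ptpn18* (*Gm28417*). Absent genes on the same strand, which strand would not resolve, lie within *Ptprc* (*A130071D04Rik*), *Ptpn11* (*Gm42930*) and *Ptpn22* (*Gm15472*, *Gm43065*). Only the spans of genes were compared, and overlap of exons was not examined.

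*Ptpn11*, on chromosome 5 from 121130533 to 121191397 on the minus strand, was at 118 and 132 CPM in EV RV and 129 and 125 CPM in Tox RV libraries. The Tox RV libraries lay inside the range of the EV RV libraries. Its log2 fold change was 0.02 (standard error 0.16, 95% interval -0.39 to 0.42), with an adjusted p-value of 0.989 in edgeR. Because levels of different genes can be set side by side only per transcript length, the balance of the SHP genes was taken in TPM. *Ptpn6* exceeded *Ptpn11* by 4.87 and 3.66 times in the EV RV pair and by 6.87 and 5.81 times in the Tox RV pair. Both Tox RV libraries had the higher ratio, at the smallest p-value the exact two-sided permutation test can give with 2 against 2 (p = 0.333). This ratio is not independent of the *Ptpn6* values above. It was examined as 1 of 6 ratios, and all 6 had p-values of 0.333 or more.

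SHP-1 and SHP-2 are brought to the membrane by receptors with inhibitory tyrosine motifs, and 7 such genes were examined, all of them tested. None had an adjusted p-value below 0.05 in edgeR, 2 of 7 were higher at an unadjusted p-value below 0.05 (1.07% of all genes) and 0 of 7 lower (2.55%), and the median log2 fold change was -0.07. *Pdcd1*, which encodes PD-1, was at 23.96 and 23.79 CPM in EV RV and at 90.0 and 73.2 CPM in Tox RV libraries, a log2 fold change of 1.77 (standard error 0.19, edgeR adjusted p = 0.490). DESeq2 gave it an adjusted p-value of 1.06e-08. The authors name *Pdcd1* as a known Tox target and report it as higher in these data. The list was chosen with that known, so the count of 2 of 7, which includes *Pdcd1*, is not independent of these data. *Lair1*, which encodes a collagen receptor, was at 1.83 and 4.28 CPM in EV RV and 8.69 and 6.05 CPM in Tox RV libraries (log2 fold change 1.26, standard error 0.45, edgeR unadjusted p = 0.0319). Its log2 fold change was 0.78 without EV RV replicate 1, the lowest library, and 2.02 without EV RV replicate 2. The most abundant of the 7 per length, *Cd5*, was at 204 and 97.9 CPM in EV RV and 136 and 142 CPM in Tox RV libraries, so the Tox RV values lay between those of the controls. *Pecam1*, at 45.6 and 33.3 CPM against 36.2 and 39.0 CPM, showed the same arrangement.

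The PEST phosphatases bind the kinase Csk or the adaptor Pstpip1 and act on the kinases just below the TCR. *Ptpn22* encodes the lymphoid phosphatase PEP, an inhibitor of Lck and Zap70, and lies on chromosome 3 from 103859795 to 103912247 on the plus strand. It was at 232 and 132 CPM in the EV RV pair and at 181 and 174 CPM in the Tox RV pair. The Tox RV libraries were close to each other and lay between the EV RV libraries, which differed by 0.82 on the log2 scale. Tox RV over EV RV, the log2 fold change was -0.03 (standard error 0.29, edgeR adjusted p = 0.987). Its sign turned on the control library used, with 0.43 without EV RV replicate 1 and -0.38 without EV RV replicate 2. *Csk*, whose product inhibits Lck and is bound by PEP, was at 184 and 209 CPM in EV RV and 198 and 215 CPM in Tox RV libraries (log2 fold change 0.07). In TPM the ratio of *Ptpn22* to *Csk* was 1.26 and 0.632 in the EV RV pair and 0.919 and 0.811 in the Tox RV pair (exact permutation p = 1.00).

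*Ptpn12* encodes PTP-PEST, a regulator of adhesion and of the cytoskeleton, and lies on chromosome 5 from 20986645 to 21055911 on the minus strand. It was the least abundant of the 10 genes, at 17.7 and 11.6 CPM in EV RV and 12.9 and 12.5 CPM in Tox RV libraries, from 650 to 884 counts. As for *Ptpn22*, the highest value was that of EV RV replicate 1, and here the other 3 libraries lay close together. On the log2 scale the difference was -0.20 (standard error 0.25, edgeR adjusted p = 0.905), 0.13 without EV RV replicate 1 and -0.47 without EV RV replicate 2. The summed NK cell markers given above, with *Ncr1* at 0 counts throughout, were also highest in EV RV replicate 1. The sort for CD4+ GFP+ cells would remove cells without CD4, and the part of these markers in the values of *Ptpn22* and *Ptpn12* was not tested. In bulk samples such as these, fewer cells of a type and less RNA per cell cannot be told apart.

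*Ptpn18* encodes a smaller PEST phosphatase of blood cells and lies on chromosome 1 from 34459762 to 34475733 on the plus strand. It had the smallest differences between replicates of the 10 genes, at 84.1 and 81.0 CPM in EV RV and 90.9 and 90.8 CPM in Tox RV libraries. The Tox RV pair was higher without overlap, by a small step. This gave a log2 fold change of 0.14 (standard error 0.16, edgeR adjusted p = 0.902), and it lay at 0.12 to 0.16 whichever library was omitted.

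Among 8 genes of partners and adaptors of these phosphatases, 1 was higher at an unadjusted p-value below 0.05 (1.07% of all genes), 0 were lower, and none had an adjusted p-value below 0.05. The 1 was *Pstpip1*, whose product links PEST phosphatases to the cytoskeleton, at 68.0 and 83.2 CPM in EV RV and 139 and 117 CPM in Tox RV libraries. Both Tox RV values were the higher. edgeR estimated a log2 fold change of 0.76 (standard error 0.19, unadjusted p = 0.00839, edgeR adjusted p = 0.897), and it lay at 0.62 to 0.92 whichever library was omitted. *Pag1*, which encodes the membrane anchor of Csk, was at 32.8 and 34.4 CPM against 42.2 and 41.2 CPM (log2 fold change 0.31, unadjusted p = 0.107). The median log2 fold change of the 8 was -0.06, with 4 positive and 4 negative.

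*Ptpn2* and *Ptpn1* encode the related enzymes TCPTP and PTP1B. TCPTP is known to act on Jak1 and Jak3 below the cytokine receptors and on Lck, and PTP1B sits on the endoplasmic reticulum and acts on Jak2, Tyk2 and the insulin receptor. *Ptpn2* lies on chromosome 18 from 67665511 to 67724595 on the minus strand. It was at 70.0 and 127 CPM in the EV RV pair and at 96.5 and 102 CPM in the Tox RV pair. The EV RV values lay on either side of the Tox RV values, in the opposite order to *Ptpn22*, and differed by 0.86 on the log2 scale, the widest gap between controls among the 10 genes. The estimated difference on the log2 scale was 0.01 (standard error 0.30, 95% interval -0.72 to 0.75, edgeR adjusted p = 0.995). It was -0.36 without EV RV replicate 1 and 0.51 without EV RV replicate 2, so no direction can be given.

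*Ptpn2* was also the gene whose mean transcript length spanned the widest range over the libraries, 381 bases. The authors' reference listed 2 transcripts, and their counterparts in GENCODE M21 share their first exons and end differently, in 2667 bases with 1218 coding bases (*Ptpn2-203*) and in 1568 bases with 1146 coding bases (*Ptpn2-201*). The shorter coding form is known to enter the nucleus, and the longer to stay at the endoplasmic reticulum. The mean transcript length was 2387 and 2086 bases in the EV RV pair and 2078 and 2006 bases in the Tox RV pair. EV RV replicate 1 was 330.2 bases above the mean of the other 3 libraries, and the Tox RV pair lay wholly below the EV RV pair (difference between group means -194.7 bases, exact two-sided permutation p = 0.333, p = 0.667 after Benjamini-Hochberg adjustment over 6 genes). Both Tox RV libraries had the shorter mean length in 17.5% of the 3793 genes with several transcripts whose length moved. EV RV replicate 1 had the longest mean length in 33.7% of these genes and the shortest in 31.7%. Among the 6 members, both Tox RV libraries were shorter in *Ptpn2*, *Ptpn6* and *Ptpn22*, the last 2 over ranges of only 0.07 and 1.28 bases. EV RV replicate 1 was the longest in all of the 6 but *Ptprj*.

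**Figure D4:**
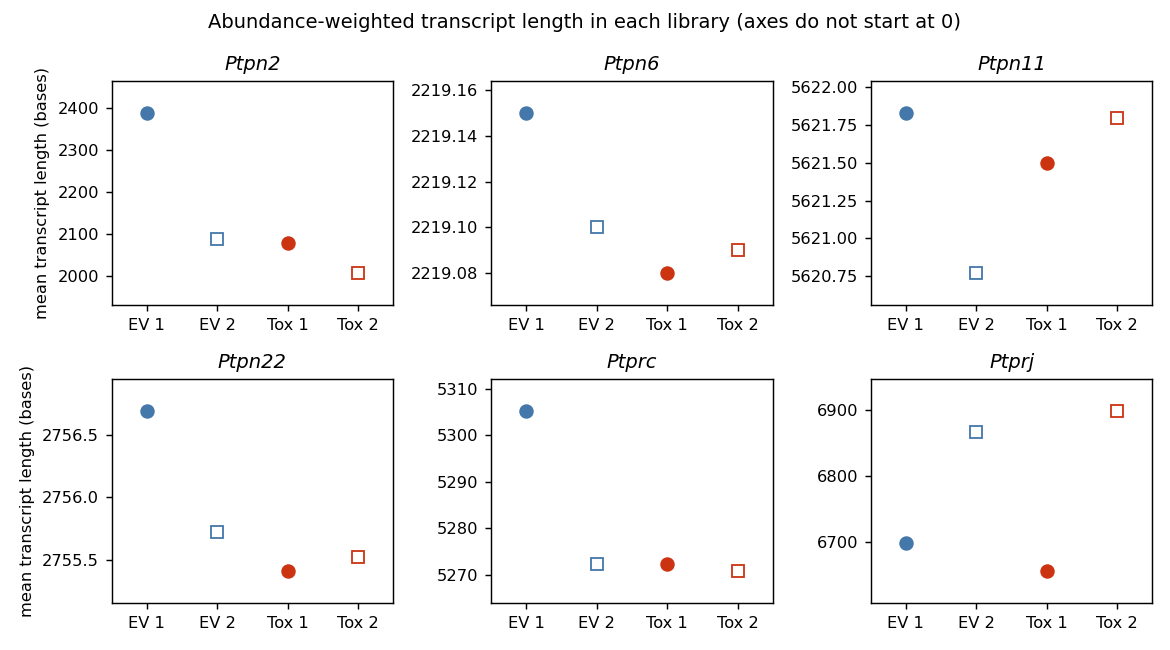
Abundance-weighted mean transcript length in bases, 1 point per library, for the 6 phosphatase genes with more than 1 transcript in the authors' reference; the axes do not start at 0 and differ in scale. EV RV replicate 1 is highest in all but *Ptprj*, most clearly in *Ptpn2* (2387 bases) and *Ptprc* (5305 bases), while the values of *Ptpn6*, *Ptpn11* and *Ptpn22* stay within 1.3 bases.

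In *Ptpn6*, *Ptpn11* and *Ptpn22* the mean length moved over 0.07, 1.06 and 1.28 bases. For *Ptpn6* and *Ptpn22* this says little, since the counterparts of their transcripts differ by few bases (2219 and 2226 for *Ptpn6*, 2743 and 2757 for *Ptpn22*). *Ptpn1* lies on chromosome 2 from 167932057 to 167979385 on the plus strand, with 1 transcript. It was at 180.4 and 225 CPM in EV RV and 185 and 178 CPM in Tox RV libraries. Here EV RV replicate 2 was the library apart, and the other 3 were close together. Tox RV over EV RV, the log2 fold change was -0.16 (standard error 0.18, edgeR adjusted p = 0.902), -0.32 without EV RV replicate 1 and 0.01 without EV RV replicate 2. The TPM ratio of *Ptpn2* to *Ptpn1* was 0.705 and 1.18 in the EV RV pair and 1.10 and 1.26 in the Tox RV pair, which overlap.

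*Ptpn7* encodes HePTP, a phosphatase of blood cells that binds and switches off the MAP kinases ERK and p38, and lies on chromosome 1 from 135132700 to 135145317 on the plus strand. It was at 248.0 and 225.1 CPM in EV RV and 247.6 and 228.6 CPM in Tox RV libraries. The Tox RV values lay within the range of the EV RV values. On the log2 scale the difference was 0.01 (standard error 0.17, 95% interval -0.40 to 0.42, edgeR adjusted p = 0.993).

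Kinases and substrates of these phosphatases were examined as a list of 17 genes, all of them tested. None had an adjusted p-value below 0.05, 1 of 17 was higher (1.07% of all genes) and 0 of 17 lower (2.55%) at an unadjusted p-value below 0.05, and the median log2 fold change was 0.02. The 1 was *Vav1*, which encodes an exchange factor phosphorylated below the TCR, at 126 and 120.5 CPM in EV RV and 196 and 173 CPM in Tox RV libraries (log2 fold change 0.58, standard error 0.17, unadjusted p = 0.0143, edgeR adjusted p = 0.897). *Cd247*, which encodes the TCR zeta chain, was at 199 and 244 CPM in EV RV and 285 and 299 CPM in Tox RV libraries, also without overlap (log2 fold change 0.40, unadjusted p = 0.0692, and 0.26 without EV RV replicate 1). *Lck*, the substrate of CD45, was at 435 and 301 CPM against 468 and 394 CPM, and the groups overlapped.

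Across the family, the levels per transcript length spanned nearly 2 orders of magnitude. In mean TPM over the 4 libraries (± SD, n = 4) the order was *Ptprc* (537 ± 32.2), *Ptpn6* (192 ± 45.9), *Ptpn7* (121 ± 9.15), *Ptpn22* (109.7 ± 28.6), *Ptpn18* (95.4 ± 3.96), *Ptpn2* (79.5 ± 21.4), *Ptpn1* (74.9 ± 9.25), *Ptpn11* (36.4 ± 1.37), *Ptprj* (26.5 ± 4.09) and *Ptpn12* (7.17 ± 1.72). Of the 9 pairs of neighbours in this order, 5 had ranges over the 4 libraries that did not overlap. *Ptprc* stood above *Ptpn6*, which stood above *Ptpn7*, and *Ptpn1* above *Ptpn11*, *Ptprj* and *Ptpn12* in turn. Among the 5 genes from *Ptpn7* to *Ptpn1* each overlapped with the next, so neighbours were not ranked reliably. Some of these genes that are further apart in the order did not overlap. *Ptpn7*, at 112.92 TPM or more, lay above *Ptpn18*, *Ptpn2* and *Ptpn1*, and *Ptpn18*, at 89.43 TPM or more, lay above *Ptpn1*. *Ptprc* made up 39.9% and 43.5% of the summed TPM of the 10 genes in the EV RV pair and 40.3% and 44.2% in the Tox RV pair. Its share did not separate the groups.

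**Figure D5:**
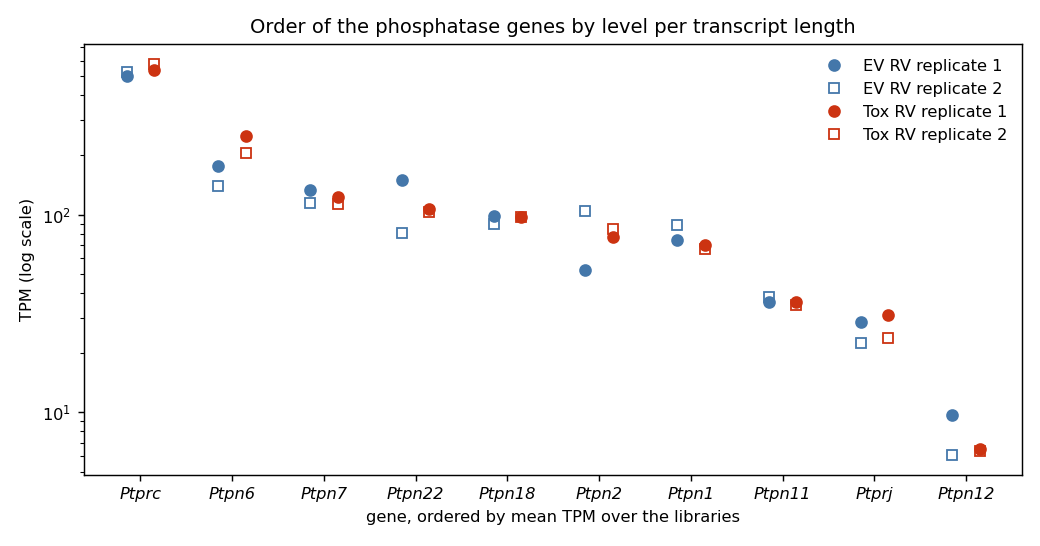
TPM of the 10 genes on a log scale, 1 point per library, ordered by the mean over the 4 libraries. *Ptprc* lies at 503 to 580 TPM and *Ptpn12* at 6.06 to 9.73 TPM, and neighbours among the 5 genes from *Ptpn7* to *Ptpn1* overlap.

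The 28 other genes of the classical tyrosine phosphatases served as a comparison, of which 18 had enough counts to be tested. In the GENCODE annotation the signature described above was found in all 27 of them whose coding sequence could be read. None had an adjusted p-value below 0.05 in edgeR, and at an unadjusted p-value below 0.05 there was 1 higher (1.07% of all genes) and 1 lower (2.55%). Their median log2 fold change was -0.28, with 12 of 18 negative, against 49.6% of all genes tested. Whether they differ from the 10 T cell genes was not tested. *Ptprd*, a receptor-type phosphatase best known from neurons, was at 16.1 and 15.4 CPM in EV RV and 8.93 and 8.10 CPM in Tox RV libraries. The Tox RV pair was lower and each pair was tight (log2 fold change -0.89, standard error 0.19, unadjusted p = 0.00364, edgeR adjusted p = 0.897). It lay at -0.97 to -0.81 whichever library was omitted. *Ptpn5*, which encodes a phosphatase of MAP kinases known from the brain, was at 16.3 and 18.2 CPM in EV RV and 27.7 and 24.05 CPM in Tox RV libraries (log2 fold change 0.58, standard error 0.18, unadjusted p = 0.0201). The most abundant of the 18 tested per length were *Ptprs*, *Ptpra* and *Ptpn9*, at mean levels of 46.1, 23.5 and 19.4 TPM, against 74.9 TPM or more for 7 of the 10 T cell genes. *Ptprs* was at 197 and 177 CPM in EV RV and 159 and 171 CPM in Tox RV libraries, and *Ptpn9* at 53.8 and 55.2 CPM against 42.1 and 41.2 CPM, in both cases with the Tox RV pair lower and an adjusted p-value of 0.897 in edgeR. *Ptpra* was at 49.5 and 45.4 CPM against 50.6 and 53.7 CPM, with the Tox RV pair higher and an adjusted p-value of 0.905.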

How the data were processed

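RNA-seq was analysed in 4 libraries, 2 transduced with EV RV and 2 with Tox RV, grouped and numbered by their sample titles. The authors checked reads with FastQC, aligned them to mm10 transcripts (RefSeq accessions) and quantified each gene with RSEM. The methods name bowtie1 as the aligner, while the sample labels name both Bowtie and Bowtie2. Versions and use of strand are not given in the sources used here. The deposited expected counts are RSEM estimates that are not normalized, and gene copies share reads by its model. The deposited TPM, FPKM and mean transcript lengths were also computed by RSEM, FPKM serving for 1 alternative. A deposited table of the whole series, named as TPM although its columns do not sum to 1000000, was not used.

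Expected counts were rounded and genes were kept with filterByExpr (minimum count 10). edgeR 4.0.16 (TMM, glmQLFit, glmQLFTest; R 4.3.3) compared all 4 libraries without a replicate block. Standard errors came from the fold change and the F statistic, and 95% intervals from the total degrees of freedom. Alternatives were DESeq2 1.42.0 with default parameters on all genes listed, limma 3.58.1 on log2(TPM + 1) and log2(TPM + 0.1), other scalings, no filter, the block, and each library left out. edgeR and DESeq2 were also run on simulated data with 200 changed genes, and how many of these they recovered is not given here. Individual mice are stated within each group, so p-values measure the spread between mice and their cultures. Whether EV RV and Tox RV cells came from the same mice is not stated, and the main fit did not model it.

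The 10 genes and the lists were chosen with earlier results of these data known. Named genes were all 10 members, *Tox*, and of each further list the 3 most abundant and the 2 with the lowest unadjusted p-values, except that 1 gene is not reported here. Coordinates, exons and sequences came from GENCODE M21 (GRCm38), matched by RefSeq accession for all transcripts of the 10 genes.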

Additional observations from a re-analysis of the deposited data

How the results depend on the processing

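None of the 10 phosphatase genes had an adjusted p-value below 0.05 under any of the 11 alternatives, and the smallest adjusted p-value was 0.0799 (*Ptpn2* without EV RV replicate 2). The number of genes called among all genes did move, from 0 to 22 with DESeq2, 22 without the low-count filter, 16 with the replicate number as a block, and 1 to 600 on omitting 1 library at a time. The count of 600 was that without EV RV replicate 2, and those without EV RV replicate 1, Tox RV replicate 1 and Tox RV replicate 2 were 1, 12 and 23. With 1 library in a group, that library is assumed to vary like those of the other group. The replicate number is not known to mark a mouse, and deviations of libraries with the same number had a correlation of 0.30 across genes. With the block, *Ptpn6* had a log2 fold change of 0.60 and an adjusted p-value of 0.339, and 0 of the 10 genes were called.

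*Ptpn6*, *Ptpn18*, *Ptprc* and *Ptprj* were higher in Tox RV cells under all 11 alternatives. For *Ptpn18* the value was 0.055 with limma on log2(TPM + 1). The other 6 genes changed sign at least 1 time, in 16 of 110 values. *Ptpn22* was at 0.11 with scaling by library totals, which moved the median of all genes to 0.12, and at 0.023 with the replicate block. *Ptpn7* and *Ptpn11* were at -0.072 and -0.062 with limma on log2(TPM + 1), and at -0.073 and -0.064 with a pseudocount of 0.1. The median of all genes was -0.049 and -0.068 with these 2 limma settings. Omitting 1 library at a time gave ranges of -0.36 to 0.51 for *Ptpn2*, -0.38 to 0.43 for *Ptpn22*, -0.47 to 0.13 for *Ptpn12*, -0.32 to 0.013 for *Ptpn1*, -0.065 to 0.10 for *Ptpn11* and -0.055 to 0.075 for *Ptpn7*. The cause of these changes was not tested. With FPKM in place of TPM the order of the 10 genes by mean was the same. The ranges over the libraries did not overlap in 4 rather than 5 neighbouring pairs. Within a library TPM and FPKM rank genes alike, so this is not an independent check of the order.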
